A study of Mus musculus with 8 samples.

Results

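Blood coagulation and its brakes were followed through the adult mouse liver with 9 genes, F8, Vwf, F2, F9, Fgb, Thbd, Procr, Tfpi and Plat. They were chosen by name, as the rows of the deposited count table that carry these symbols, and make up 9 of its 46609 rows (genes and spike-ins). All 9 had enough counts to be tested in every comparison.

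The data were Smart-seq2 profiles, deep single-cell RNA-seq from cells sorted into plate wells, of 3491 cells from livers of C57BL6/J wild-type mice and of mice heterozygous for the reporters Pdgfrb-GFP, Pdgfra-H2bGFP, Cspg4-dsRED, Acta2-GFP or Cldn5-GFP, alone or in combination. The cells form 4 classes, endothelial, epithelial (parenchymal: hepatocytes and cholangiocytes), immune and mesenchymal, each with a male and a female pool, which gives 8 samples. Mice were untreated adults, several animals went into a pool, the labels do not tie a cell to a mouse, and livers were not perfused before dissociation. Endothelial cells were sorted on CD31, VE-cadherin or Cldn5-GFP, cholangiocytes on EPCAM, Kupffer cells on CD68, mesenchymal cells on reporters or PDGFRα, and hepatocytes as unselected living cells, so the number of cells of each kind reflects the sort and not the organ. The pools were the only replicates, so p-values measure the spread between these pools, which also differ in sex and in the plates that hold them.

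Coagulation ends when thrombin, made from the product of F2, cuts fibrinogen, of which Fgb encodes the beta chain, into fibrin. Factor IX, from F9, and its cofactor factor VIII, from F8, amplify that step, and factor VIII travels in plasma bound to von Willebrand factor, from Vwf, which also tethers platelets to the damaged vessel wall. Thrombomodulin (Thbd) and the endothelial protein C receptor (Procr) turn thrombin toward the activation of protein C, tissue factor pathway inhibitor (Tfpi) blocks the start of the cascade, and tissue plasminogen activator (Plat) starts the digestion of fibrin. The liver is known as the main source of most circulating clotting factors, with hepatocytes making the majority and liver endothelium making factor VIII.

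Depth was high and uneven. Cells held from 50042 to 1143895 counts each, with a median of 233696, over 22 plates, and no cell name occurred in more than 1 pool. The pools held 655 male and 451 female endothelial, 358 and 39 epithelial, 255 and 396 immune, and 998 and 339 mesenchymal cells. Of the 39 female epithelial cells, 37 were cholangiocytes and 2 hepatocytes, and the 339 female mesenchymal cells came from 1 plate. The immune pools were also unlike. All 58 B cells and 63 of the 65 myeloid cells were male, while 394 of the 396 female immune cells were Kupffer cells. The class labels held against marker genes: the summed level of Pecam1, Cdh5, Kdr and Tie1 was between 3125 and 4774 CPM in the endothelial populations, 478 CPM in Kupffer cells, 311 CPM in B cells, 198 CPM in myeloid cells, and at most 49.2 CPM elsewhere. CPM here are counts scaled to a total of 1000000 counts, summed over a group of cells. In such sums, fewer expressing cells and less RNA per cell cannot be told apart.

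**Figure D1:**
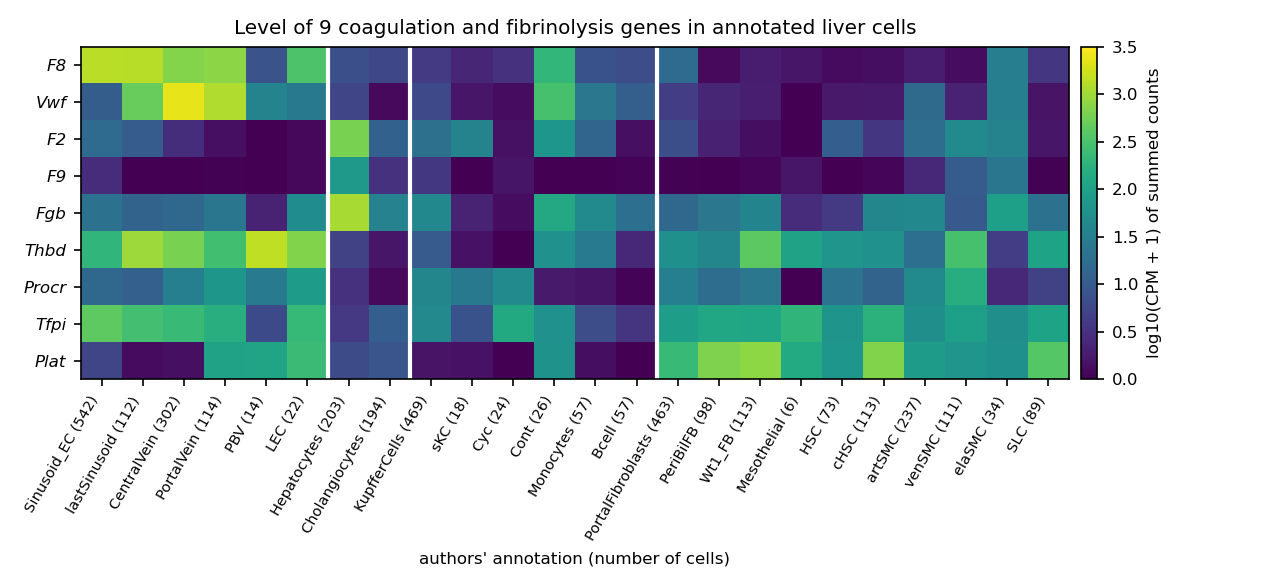
Level of each of the 9 genes (rows) in the cells of each of the 24 annotations given by the authors (columns, with the number of cells), as log10(CPM + 1) of counts summed over both pools, on a colour scale. F8 was brightest in Sinusoid_EC (1353 CPM) and lastSinusoid (1349 CPM), F2 and Fgb in hepatocytes, and Plat in Wt1_FB (809 CPM), cHSC (684 CPM) and PeriBilFB (666 CPM).

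F8 and Vwf were both endothelial at the level of classes. F8 stood at 1198 and 873 CPM in the male and female endothelial pools, against 4.95 to 12.7 CPM in the 6 other pools. Vwf stood at 599.6 and 1235 CPM, against 1.72 to 15.3 CPM elsewhere. For both genes the endothelial pools lay far above all others and did not overlap with them. In edgeR's quasi-likelihood test over all 24046 genes, endothelial cells against the mean of the other 3 classes, F8 was higher by a log2 fold change of 6.97 ± 0.36 (SE; Benjamini-Hochberg adjusted p = 0.00023) and Vwf by 7.28 ± 0.47 (adjusted p = 0.00036). Both calls were made in all 15 alternative fits. F8 was counted in 94.2% of male and 95.8% of female endothelial cells, Vwf in 53.3% and 80.7%.

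Across the endothelial comparison 4 of the 9 genes were called, all higher: F8, Vwf, Thbd and Tfpi. The background of this comparison was 8.28% of all genes called, and the median log2 fold change was 1.5 over the 9 genes and 0.04 over all genes tested. A gene counted as called at an adjusted p under 0.05 with at least a log2 fold change of 1. The 4 classes are compared each with the mean of the other 3 on a log scale, so a gene that is high in endothelial cells pulls its fold change down in the other classes. F8 was accordingly called lower in parenchymal (log2 fold change -2.69 ± 0.45, adjusted p = 0.0067), mesenchymal (-2.47 ± 0.44, adjusted p = 0.0086) and immune cells (-1.81 ± 0.42, adjusted p = 0.025), although its levels in these 3 classes overlapped.

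**Figure D2:**
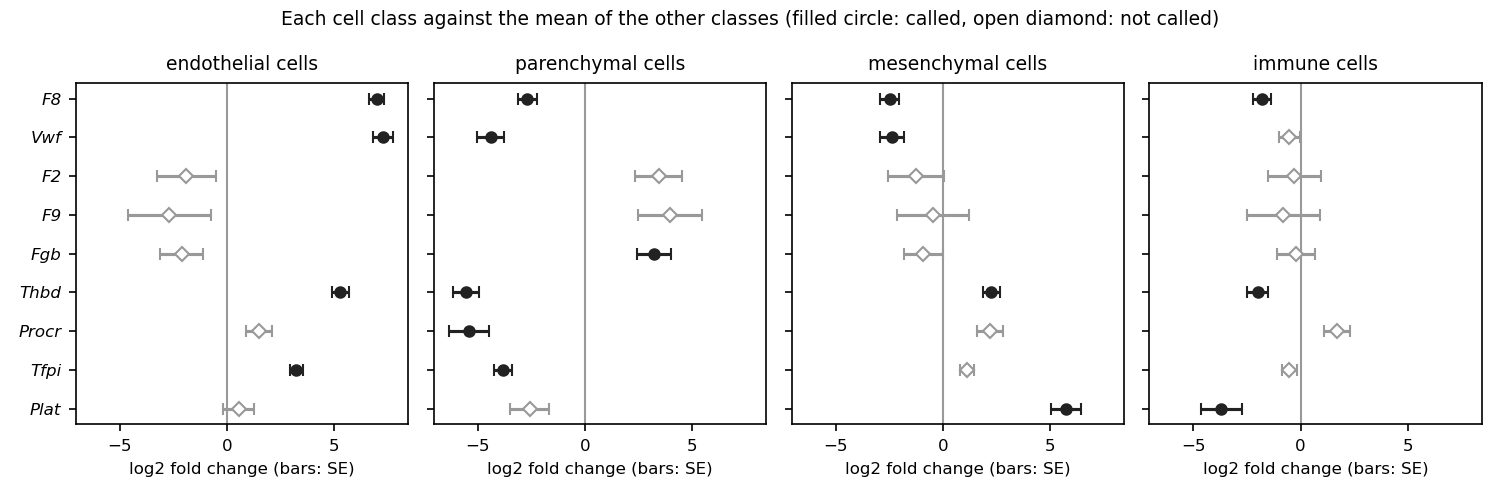
Log2 fold change of each of the 9 genes (points) with its SE (bars) in 4 panels, each a cell class against the mean of the other 3, from edgeR's quasi-likelihood test on 8 sums; filled circles were called and open diamonds were not. Endothelial cells had 4 genes called, parenchymal cells 6, mesenchymal cells 4 and immune cells 3.

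The low F8 and Vwf signal outside the endothelium rested in part on few cells. Immune F8 was 12.7 and 6.72 CPM in the male and female pools, and 6.90 and 1.40 CPM without the 26 cells that the authors annotate as Cont, Kupffer cells carrying endothelial transcripts (F8 208, Kdr 985, Stab2 1174 CPM). Mesenchymal F8 was 6.20 and 8.19 CPM, and 1.99 and 4.09 CPM without the 9 cells of the small cluster m14c, where F8 was 701 CPM over 3 male cells and 232 CPM over 6 female cells. In the female immune pool 82.4% of the Vwf counts came from a single cell, and in the female mesenchymal pool 63.0%. With the Cont and m14c cells left out, a choice made after seeing the data, F8 was no longer called lower in parenchymal cells (log2 fold change -1.87, adjusted p = 0.11) and Vwf was no longer called lower in mesenchymal cells (-2.26, adjusted p = 0.17).

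Inside the endothelium, F8 and Vwf followed different orders. Cluster e2 is portal vein, e3, e5, e6 and e8 are sinusoid, e1 is central vein and e4 is lymphatic endothelium. Cluster e7 carries the annotation of central vein, but the study also groups it with the sinusoids, so it stood on neither side of the comparison of sinusoids with veins. F8 ran, as male then female CPM, from 1572 and 1790 in e3 through 1319 and 1363 in e6, 1368 and 777 in e5 and 1110 and 592 in e8, to 686 and 769 in e1, 621 and 751 in e7, 648 and 695 in e2, and 439 and 278 in e4. The order was sinusoid above vein above lymphatic, but neighbours in it overlapped between pools except e3 above e6 and e2 above e4, and the female e3 value rests on 6 cells. Vwf ran from 2241 and 3017 CPM in e1 through 1748 and 1879 in e7, 812 and 1277 in e2 and 420 and 509 in e6, to 20.2 and 26.4 in e5, 11.9 and 31.3 in e4, 5.37 and 8.74 in e8 and 6.05 and 4.83 in e3. Here neighbours did not overlap from e1 down to e5, so central vein lay above portal vein and portal vein above the e6 sinusoid. The lowest 4 clusters, e5, e4, e8 and e3, overlapped in part.

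**Figure D3:**
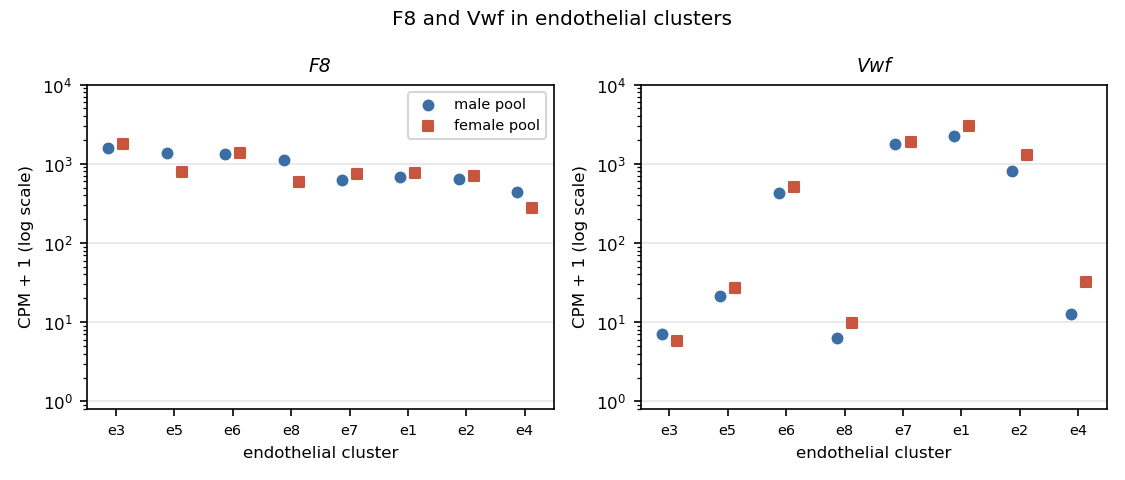
F8 and Vwf in the 8 endothelial clusters (x axis), as CPM + 1 of summed counts on a log axis, with 1 point for the male and 1 for the female pool. F8 varied within a range of 278 to 1790 CPM, while Vwf spanned from 4.83 CPM in e3 to 3017 CPM in e1.

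Sinusoids as a whole (654 cells) held 1471 and 1072 CPM of F8 in male and female cells, against a mean of e1 and e2 of 667 and 732 CPM, a 2.21-fold and 1.46-fold difference. Sinusoidal Vwf was 52.6 and 282 CPM against a vein mean of 1526 and 2147 CPM, a log2 ratio of -4.86 and -2.93. The direction of both was shared by the pools. The male and female sinusoid sums were unlike mixtures of clusters. They held 230 and 6 cells of e3, 120 and 31 of e5, 34 and 78 of e6, and 35 and 120 of e8. The part of this mixture in the gap between the pools was not tested. In the edgeR fit of 13 populations neither passed: the estimate was 0.82 ± 0.62 on the log2 scale for F8 (adjusted p = 0.83) and -3.31 ± 0.89 for Vwf (unadjusted p = 0.0016, adjusted p = 0.19). With e7 among the sinusoids Vwf was at -1.87, and with e7 as a further vein at -3.45. None of the 9 genes was called in sinusoids against veins, beside 0.0817% of all genes, while 3 (F2, Vwf and F9) had an unadjusted p under 0.05, beside 9.76% of all genes, and DESeq2 called 2, F2 and Vwf, beside 3.25%. The median log2 fold change was 0.40 over the 9 genes and 0.27 over all. These populations were found by clustering the same cells on expression, so tests between them are not independent of how the groups were drawn.

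The 4 sinusoid clusters were not alike in Vwf. Cluster e6, annotated lastSinusoid, held 420 and 509 CPM, while e3, e5 and e8 stayed at or below 26.4 CPM. F8 in e6 lay within the range of the other sinusoid clusters, 592 to 1790 CPM. In e3 a Vwf count occurred in 28.0% of cells, but only 0.847% had at least 20 counts and 1 cell held 48.7% of all Vwf counts. The share of cells with at least 20 Vwf counts was 92.8% in e1, 60.2% in e2, 52.7% in e7 and 41.1% in e6. It was 1.32% in e5 and 0.645% in e8.

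Most vein cells held both transcripts. In e1, 145 of 152 cells had a count of both F8 and Vwf, 4 of F8 only and 3 of Vwf only. In e2 it was 107 of 128, and in e6 100 of 112. In e3 66 of 236 cells held both and 170 held F8 without Vwf, and no cell held Vwf without F8. Cluster e7 differed from e1 in its spread: 114 of its 150 cells held both, 27 held Vwf only and 8 F8 only, and the quartiles over its cells were 5.92, 23.5 and 1034 CPM for F8 and 23.7, 437 and 3148 CPM for Vwf. In e1 the Vwf quartiles were 1305, 2536 and 3732 CPM, and in e3 the F8 quartiles were 956, 1507 and 2160 CPM. Counts this low also occur where the gene is not expected: 82.5% of the 57 B cells had a Vwf count, at 10.6 CPM over all, and 1.75% had at least 20 counts.

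With every cell thinned to 50000 counts, which left out no cell, F8 was counted in 95.8% of Sinusoid_EC, 88.6% of PortalVein, 76.8% of CentralVein (e1 and e7) and 63.6% of LEC (lymphatic) cells. Before thinning these shares were 97.8%, 93.9%, 89.7% and 90.9%, and in B cells the share went from 57.9% to 17.5%. Thinned Vwf was counted in 86.4% of CentralVein, 82.5% of PortalVein, 67.0% of lastSinusoid, 50% of LEC and 17.9% of Sinusoid_EC cells. The B cell share was 33.3%, the highest outside the endothelium and above that of Sinusoid_EC. Cont cells, at 19.2%, also lay above Sinusoid_EC, and all other annotations outside the endothelium lay below it. Among these the share was 10.5% in Monocytes, 10.4% in KupfferCells, 5.91% in Hepatocytes and 0.515% in Cholangiocytes.

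Central and portal vein differed in Vwf without overlap of the pools, but not past the threshold. Vwf was 2241 and 3017 CPM in e1 against 812 and 1277 CPM in e2, 2.76-fold and 2.36-fold higher in the male and female pools, with a log2 fold change of 1.38 ± 0.87 (adjusted p = 0.89). F8 differed by a log2 fold change of 0.16 ± 0.73. None of the 9 genes was called by edgeR, beside 0.0972% of all genes, 1 (Plat) had an unadjusted p under 0.05, beside 7.32%, and DESeq2 called 1, beside 4.26%. The median log2 fold change was 0.16 over the 9 genes and 0.00 over all genes tested. Without the 14 PBV cells in e2 the sinusoid-to-vein values were 0.72 for F8 and -3.41 for Vwf, and the count called stayed at 0.

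The 14 cells of e2 that form the community cluster e5c, annotated PBV (peribiliary vasculature), held little F8. It was 6.90 CPM there and 768 CPM in the other portal vein cells, and 35.7% of PBV cells held F8 after thinning. Vwf was 35.9 CPM, of which 67.9% came from 1 cell, and 12.4 CPM without it. Thbd was high, with 305 CPM over 5 male cells and 2066 CPM over 9 female cells, and Tfpi was 5.06 CPM against 154 CPM in the other portal vein cells. These values are a description of a small cluster found from the same expression data and were not tested.

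Lymphatic endothelium (22 cells) held F8 at 439 and 278 CPM and Vwf at 11.9 and 31.3 CPM. Against the mean of sinusoids, e1 and e2, Vwf was lower by a log2 fold change of -5.22 ± 0.99 (edgeR, adjusted p = 0.0036), while F8, at -1.28 ± 0.65, was not called (adjusted p = 0.29). Plat was called higher, 5.13 ± 0.999 (adjusted p = 0.0045), but its level was 5.61 and 351 CPM in the 9 male and 13 female cells, a single cell held 50.7% of its counts, and the log2 fold change was 0.22 without the lymphatic female pool. So 2 of the 9 genes were called, beside 7.39% of all genes, with a median log2 fold change of 0.54 over the 9 and -0.77 over all. With sums per plate Vwf stood at -4.82 and was not called (adjusted p = 0.94). Lman1 and Mcfd2, which together carry factors V and VIII out of the endoplasmic reticulum, were also called lower in lymphatic endothelium (log2 fold changes -4.69 ± 0.74 and -2.04 ± 0.40, adjusted p = 0.0009 and 0.0048), genes named after their values were seen.

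The endothelial genes most like F8 and Vwf were sought over the 16 sums of endothelial cluster and pool, among 10031 genes at a mean of 10 CPM or more. For F8 they were Cd55 and Tcim (Pearson r = 0.86 each) and Lifr (0.85). For Vwf they were Edn1 (0.96), which encodes endothelin-1, Entpd1 (0.94), which encodes the ADP-degrading enzyme CD39, and Bmp4 (0.93). F8 and Vwf had r = -0.19 with each other. The 16 sums share 2 pools and plates, and these values describe the clusters with no test.

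F2, F9 and Fgb, the hepatocyte factors, were highest in the male epithelial pool, which holds nearly all hepatocytes. F2 was 250.4 and 1.25 CPM in male and female epithelial cells, and 6.62 to 20.1 CPM in the other 6 pools. F9 was 30.7 and 9.84 CPM, the latter 63 counts in 1 cell, against 0 to 3.136 CPM elsewhere, with 0 of 451 female endothelial cells holding a count, which allows a share of cells with a count of up to 0.665%. Fgb was 447 and 29.4 CPM, against 8.30 to 45.8 CPM elsewhere. For F2 and Fgb the female epithelial pool therefore lay within or below the range of the other classes.

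In parenchymal cells against the other classes Fgb was called higher, 3.24 ± 0.79 (edgeR, adjusted p = 0.032), while F2 (3.44 ± 1.10, adjusted p = 0.083) and F9 (3.97 ± 1.49, adjusted p = 0.13) were not. Both were called higher by DESeq2, without the filter on low counts, with thinned cells and with sums per plate. The Fgb call rested on 1 pool: its log2 fold change was 0.04 without the epithelial male pool, and with the sex pool as a replicate block it was 2.82 (adjusted p = 0.12). In all, 6 of the 9 genes were called, 1 higher and 5 lower, beside 12.4% of all genes, with a median log2 fold change of -2.69 over the 9 genes and -0.27 over all. DESeq2 called 9, beside 24.3% of all genes, as did edgeR without the filter, beside 14.6%. The 5 lower genes were F8, Vwf (-4.40 ± 0.65), Thbd (-5.55 ± 0.62), Procr (-5.40 ± 0.94) and Tfpi (-3.83 ± 0.43), with adjusted p of 0.0067, 0.0040, 0.0012, 0.0083 and 0.0013.

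The male hepatocytes (201 cells) held 624 CPM of F2, 75.0 CPM of F9 and 1089 CPM of Fgb, against 12.1, 2.44 and 37.8 CPM in male cholangiocytes and 1.28, 0 and 4.33 CPM in female ones. Against cholangiocytes, the log2 fold change was 7.32 ± 1.87 for F2 (edgeR, adjusted p = 0.065), 6.48 ± 1.88 for Fgb (adjusted p = 0.10) and for F9 6.67 ± 2.66 (adjusted p = 0.26). None of the 9 genes was called, beside 1.23% of all genes, although 5 (F2, Thbd, Fgb, Vwf and F9) had an unadjusted p under 0.05, beside 13.9%, and DESeq2 called 4, all of these but F9, beside 15.4%. With the replicate block edgeR called 1, Vwf, whose level was 4.18 CPM in male hepatocytes and 0.142 and 0.961 CPM in cholangiocytes. In the hepatocyte cluster p4, 1 cell held 85.7% of the Vwf counts, and without it Vwf there was 1.30 CPM in place of 9.03 CPM. The hepatocyte side of the comparison with cholangiocytes is 1 sum, the male pool. The spread behind these errors therefore comes from the other populations in the fit, and the lone sum is assumed to vary like them. The median log2 fold change was 3.96 over the 9 genes and -0.03 over all.

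Hepatocytes varied among themselves. Fgb was counted in 83.3%, F2 in 67.0% and F9 in 26.1% of 203 hepatocytes. F2 was 1315 CPM in p3, 745 CPM in p4, 462 CPM in p5 and 329.8 CPM in p1, and was 11.03 CPM in the cholangiocyte cluster p2. Fgb was 2809 CPM in p3, 1345 in p4, 749 in p1 and 383 in p5, and F9 was 158, 108, 34.2 and 42.0 CPM in the same order. All 3 genes were thus highest in p3 and next highest in p4. Clusters p3 and p5 carried the pericentral enzyme Cyp2e1 at 4561 and 2770 CPM, and p4 the periportal enzyme Cyp2f2 at 1164 CPM.

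Relative to albumin p3 stayed highest and p1 lowest for F2, while p4 and p5 changed places. F2 came to 12.8 counts per 100 counts of Alb in p3, 10.8 in p5, 9.04 in p4 and 5.46 in p1, and to 0.307 in p2. Fgb came to 27.3 in p3, 16.3 in p4, 12.4 in p1 and 8.98 in p5. Clusters p3, p4 and p5 had only male cells, and between 82.6% and 98.2% of each came from a single plate, so cluster and plate cannot be told apart.

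**Figure D4:**
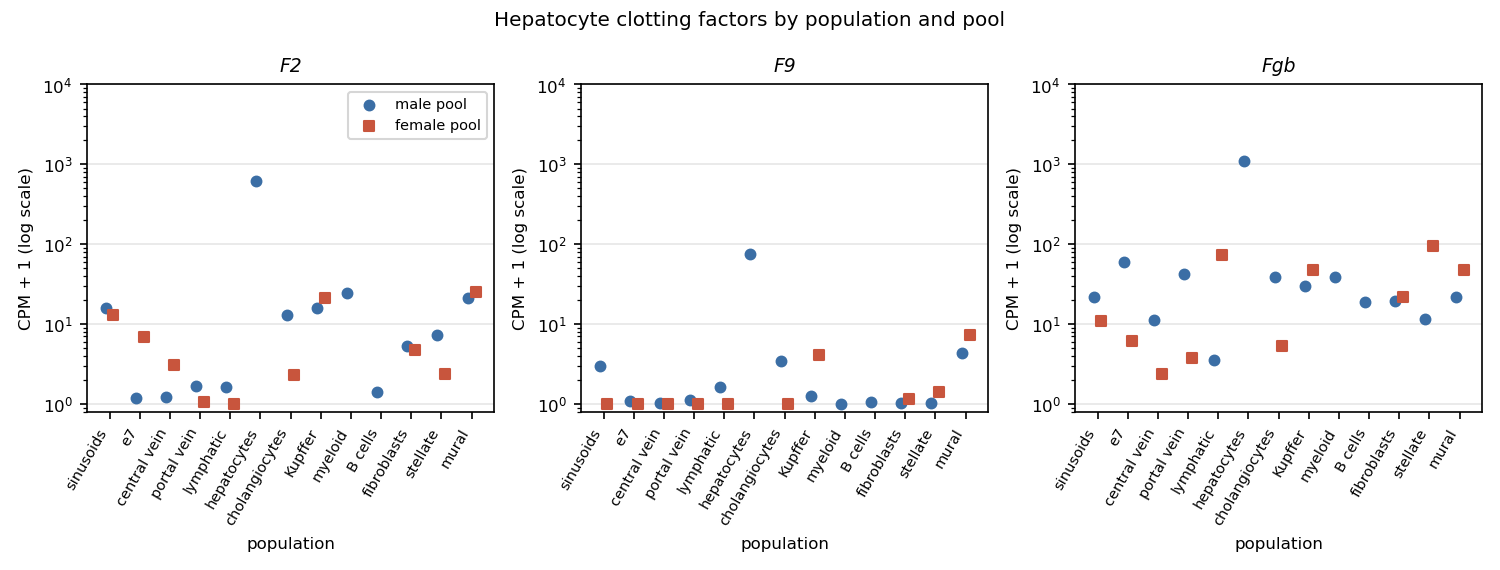
F2, F9 and Fgb by population (x axis), as CPM + 1 of summed counts on a log axis, with 1 point for each pool of at least 5 cells. Male hepatocytes stood at 624 CPM of F2 and 1089 CPM of Fgb, above every population outside the hepatocytes.

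Traces of F2 and Fgb occurred in all classes together with other hepatocyte transcripts. Per 100 counts of Alb, F2 came to 5.14 in endothelial, 6.43 in immune and 5.23 in mesenchymal cells against 9.11 in hepatocytes, and Fgb to 10.3, 14.2 and 12.5 against 15.96. The summed level of 9 hepatocyte markers was 18832 CPM in hepatocytes, 4546 CPM in cholangiocytes and between 173 CPM (central vein) and 932 CPM (mural cells) in the other populations. In sinusoids F2 was 15.02 and 11.9 CPM, and in e1 and e2 it was 0.0526 to 2.10 CPM, beside summed hepatocyte markers of 347 CPM in sinusoids, 173 CPM in central and 436 CPM in portal vein. The part of these markers in the F2 and Fgb values was not tested.

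The sequences just upstream of these genes are shown because F2, F9 and Fgb were high in the same hepatocyte clusters, with F8 from endothelium beside them. Each is the 250 bases before the RefSeq start on GRCm38.p6, 5′ to 3′ on the strand of the gene: F2 on chr2:91636458-91636707 (minus strand), F9 on chrX:59999214-59999463 (plus), Fgb on chr3:83049864-83050113 (minus) and F8 on chrX:75380042-75380291 (minus). Capitals mark matches, on either strand, to the letters GTTAAT (part of an HNF1 site), CAAAGT (HNF4), AGATAA (bound by GATA factors), AGGAAG (bound by ETS factors) or TATAAA (the core promoter box).
F2: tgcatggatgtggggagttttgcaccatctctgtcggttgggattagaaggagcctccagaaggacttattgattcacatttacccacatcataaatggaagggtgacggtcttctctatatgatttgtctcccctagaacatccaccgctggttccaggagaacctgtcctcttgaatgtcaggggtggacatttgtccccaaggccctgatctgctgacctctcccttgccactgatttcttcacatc
F9: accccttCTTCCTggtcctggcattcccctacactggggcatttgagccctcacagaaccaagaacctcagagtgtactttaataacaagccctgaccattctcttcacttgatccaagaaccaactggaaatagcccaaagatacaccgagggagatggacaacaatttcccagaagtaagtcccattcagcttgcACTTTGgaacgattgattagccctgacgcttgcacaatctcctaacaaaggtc
Fgb: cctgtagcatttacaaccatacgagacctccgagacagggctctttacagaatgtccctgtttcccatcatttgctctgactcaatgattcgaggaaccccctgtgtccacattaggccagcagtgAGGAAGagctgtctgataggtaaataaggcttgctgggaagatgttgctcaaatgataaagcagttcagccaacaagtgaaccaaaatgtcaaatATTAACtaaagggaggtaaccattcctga
F8: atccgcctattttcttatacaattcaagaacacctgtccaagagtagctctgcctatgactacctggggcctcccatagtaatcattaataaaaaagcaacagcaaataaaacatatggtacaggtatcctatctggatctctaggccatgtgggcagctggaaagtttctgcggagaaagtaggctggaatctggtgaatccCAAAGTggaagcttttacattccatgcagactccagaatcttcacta

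GTTAAT stood in the Fgb sequence, on the strand opposite to the one shown, 29 to 24 bases before the start. It occurs in 6.43% of 32851 mouse promoters of this length. CAAAGT stood in the F9 sequence 53 to 48 bases and in the F8 sequence 47 to 42 bases before the start, and occurs in 12.6% of promoters. AGGAAG stood in Fgb and F9 and occurs in 29.5%. AGATAA (9.99%) and TATAAA (12.4%) were in none of the 4, and the F2 sequence held none of the 5. The RefSeq start of F8 lies inside the GENCODE gene model, so the window may not be the start used in liver. GC content was 49.2% for F2, 47.6% for F9, 44.8% for Fgb and 42.8% for F8. A match of letters is a description and not a binding site.

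Thbd was endothelial and mesenchymal. It stood at 312 and 686 CPM in the male and female endothelial pools, 118 and 76.6 CPM in the mesenchymal pools, 8.44 and 12.4 CPM in the immune pools and 1.82 and 1.72 CPM in the epithelial pools. The 4 classes did not overlap. Thbd was called higher in endothelial (5.27 ± 0.40, adjusted p = 0.00065) and in mesenchymal cells (2.27 ± 0.39, adjusted p = 0.0080) and lower in parenchymal and immune cells (immune -1.99 ± 0.49, adjusted p = 0.031). By cluster it was highest in e6 (760 and 1065 CPM), e4 (808 and 624), e7 (477 and 873) and e1 (444 and 731), and lowest in e5 (110.5 and 65.8). Among mesenchymal annotations it was 505 and 262 CPM in Wt1_FB fibroblasts and 296 and 305 CPM in venSMC, the smooth muscle of veins, against 19.6 and 17.3 CPM in artSMC, that of arteries. The venSMC pools lay above the artSMC pools without overlap, as a description with no test.

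Procr was below 50 CPM in each of the 8 class pools, and the main edgeR test called it higher in no class. It was 24.8 and 28.3 CPM in the endothelial pools, 39.4 and 31.5 CPM in the mesenchymal, 10.97 and 42.7 CPM in the immune and 0.977 and 0.313 CPM in the epithelial pools. Only the epithelial pools stood apart, below the rest. Its log2 fold change was 1.5 ± 0.62 in endothelial (adjusted p = 0.19) and 2.19 ± 0.61 in mesenchymal cells (adjusted p = 0.054), where it was called higher by DESeq2, without the filter on low counts, with thinned cells and with sums per plate. The highest annotation was venSMC, with 156 and 133 CPM and a count in 40.5% of cells, followed by LEC with 94.8 and 81.8 CPM from 4 of 22 cells. Kupffer cells held 21.5 and 43.5 CPM.

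Tfpi was broad, and among populations its mean over the pools was highest in sinusoids. In female cells lymphatic endothelium, at 276 CPM, stood level with sinusoids, at 273 CPM. It stood at 370.3 and 224 CPM in the endothelial pools, 97.1 and 89.3 CPM in the mesenchymal, 36.3 and 39.6 CPM in the immune and 7.37 and 7.66 CPM in the epithelial pools. The classes did not overlap, and Tfpi was called higher in endothelial (3.22 ± 0.30, adjusted p = 0.0014) and lower in parenchymal cells. In sinusoids it was 449 and 273 CPM against a vein mean of 208 and 160 CPM, 2.16-fold and 1.70-fold, with a log2 fold change of 0.97 ± 0.52 that did not pass (edgeR, adjusted p = 0.59). Sinusoid_EC held 461 and 290 CPM, CentralVein 243 and 209, PortalVein 174 and 136, and cHSC, the capsular stellate cells, 173 and 174.

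**Figure D5:**
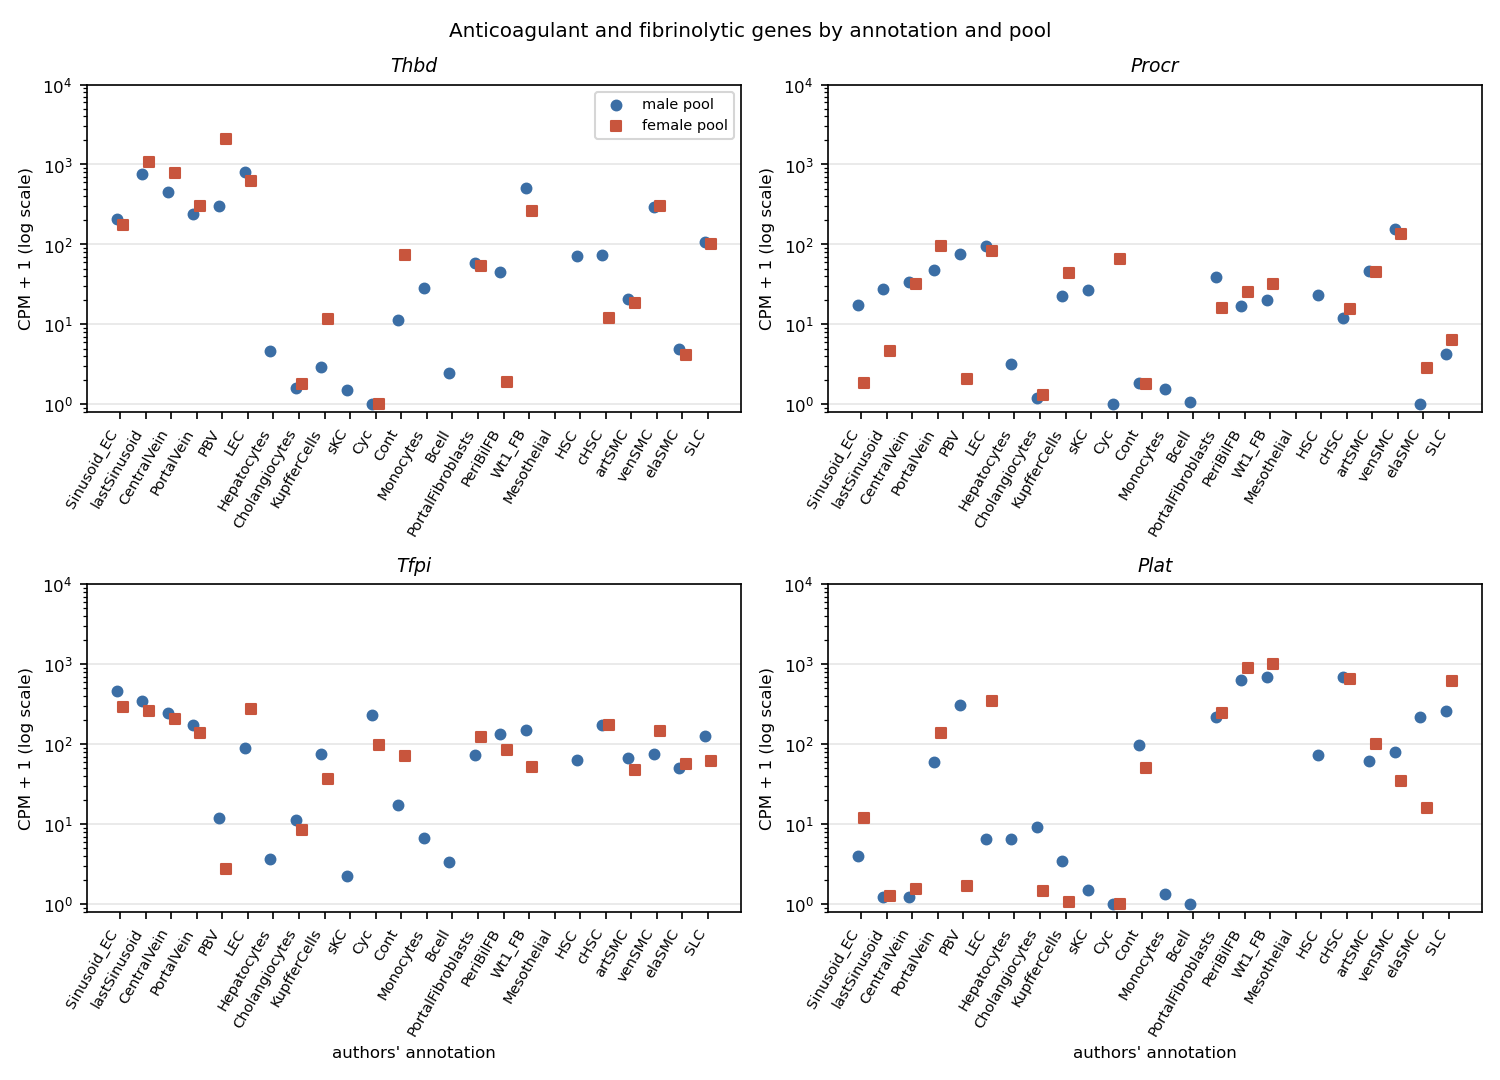
Thbd, Procr, Tfpi and Plat by the authors' annotation (x axis), as CPM + 1 of summed counts on a log axis, with 1 point for each pool of at least 5 cells. Thbd and Tfpi were highest in endothelial cells and Plat in Wt1_FB, cHSC and PeriBilFB, with HSC (67.3 CPM over both pools) far below cHSC (684 CPM), and with wide gaps between the male and female pools for Plat in LEC (5.61 and 351 CPM) and PBV (313 and 0.712 CPM).

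Plat was highest in mesenchymal cells. It was 314 and 311 CPM in the mesenchymal pools, 9.74 and 34.3 CPM in the endothelial, 7.16 and 0.781 CPM in the epithelial and 2.75 and 1.69 CPM in the immune pools. The mesenchymal pools lay above all others. Plat was called higher in mesenchymal cells (5.75 ± 0.71, adjusted p = 0.0018) and lower in immune cells (-3.71 ± 0.96, adjusted p = 0.039, or 0.052 with the replicate block). In mesenchymal cells 4 of the 9 genes were called, beside 11.8% of all genes: Plat and Thbd higher, F8 and Vwf (-2.36 ± 0.56, adjusted p = 0.029) lower, with a median log2 fold change of -0.48 over the 9 and 0.02 over all. In immune cells 3 were called, all lower, F8, Thbd and Plat, beside 13.2% of all genes, with a median of -0.53 over the 9 and 0.09 over all. The 3 immune calls were all lost without the immune female pool, and that of F8 with thinned cells (-1.31, adjusted p = 0.084) and with sums per plate (-0.78, adjusted p = 0.61). The Vwf call in mesenchymal cells was lost with thinned cells (-2.17, adjusted p = 0.056).

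Within the mesenchyme Plat was 697 and 995 CPM in Wt1_FB, 634 and 910 CPM in PeriBilFB (peribiliary fibroblasts), 695 and 648 CPM in cHSC, 221 and 245 CPM in PortalFibroblasts and 257 and 616 CPM in the cells annotated SLC. Levels were lower in 2 smooth muscle annotations, with 60.7 and 100.99 CPM in artSMC and 78.6 and 33.8 CPM in venSMC. The third smooth muscle annotation, elaSMC, held 218 CPM in 9 male cells, 99.0% of it in 1 cell, and 15.1 CPM in 25 female cells. HSC held 67.3 CPM over both pools, against 684 CPM in cHSC, with only 4 female cells. Plat was counted in 53.4% of HSC and 78.8% of cHSC, and the share with at least 20 counts was 8.22% and 60.2%. The difference between HSC and cHSC is a description with no test.

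In tests of fibroblasts, stellate cells and mural cells, each against the mean of the other 2, none of the 9 genes was called by edgeR, beside 0.035%, 0.0272% and 0.0778% of all genes. For fibroblasts 1 gene, F8, had an unadjusted p under 0.05 (log2 fold change 3.58 ± 0.65, adjusted p = 0.053), beside 6.22% of all genes, and DESeq2 called 1, beside 1.33%. For stellate cells it was Vwf and F8 (F8 -4.42 ± 0.86, adjusted p = 0.10), beside 7.17%, with 1 called by DESeq2, beside 2.95%. For mural cells it was F2, Vwf and F9 (Vwf 2.73 ± 0.74, adjusted p = 0.24), beside 6.44%, with 0 called by DESeq2, beside 2.13%. F8 in fibroblasts was 10.3 and 11.7 CPM, and it was 15.9 and 16 CPM in PortalFibroblasts, where 2.16% of cells had at least 20 counts and 1 cell held 38.7% of the counts. It was 0.683 and 6.02 CPM in mural cells and 0.363 and 0.139 CPM in stellate cells. The 9 cells of m14c were not left out of these values and tests. Without them the F8 counts of all mesenchymal cells fell from 2287 to 888. The median log2 fold changes of the 9 genes were -0.10, -1.42 and 0.84, and those of all genes 0.10, -0.16 and 0.00.

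In veins Plat separated the portal from the central side in both pools, though not past the threshold. It was 83.9 and 119 CPM in e2 (1352 and 2262 counts) and 0.315 and 0.223 CPM in e1 (9 and 5 counts), with a log2 fold change of -8.49 ± 1.83 (edgeR, unadjusted p = 0.0002, adjusted p = 0.0999). It was counted in 24.6% of PortalVein and 6.62% of CentralVein cells. Without the cell with the most counts, PortalVein Plat was 81.1 CPM in place of 102 CPM, and in PBV it was 5.81 CPM in place of 111 CPM. Plat in sinusoids was 2.75 and 5.16 CPM.

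Levels were also divided by the kilobases of all annotated exons of a gene, such as 16.064 kb for Vwf and 3.723 kb for Thbd. This union can be longer than the transcript that a cell makes, so orders between genes depend on it. Levels over both pools in sinusoids were 136 CPM per kb of F8, 103 of Thbd, 72.5 of Tfpi and 7.55 of Vwf. The order of the first 2 was not the same in each pool, with F8 at 149 and 108 and Thbd at 70.9 and 176 CPM per kb over male and female sinusoids. These 2 sums hold the sinusoid clusters in unlike shares. Central vein held 161 of Vwf, 153 of Thbd, 72.9 of F8 and 42.8 of Tfpi, and there too the leading pair changed places, with Vwf at 139 and 188 and Thbd at 119 and 196 in male and female cells. Portal vein held 112 of Thbd, 68.0 of F8 and 66.2 of Vwf, with Thbd at 66.6 and 150.1, F8 at 65.4 and 70.2 and Vwf at 50.5 and 79.5 by pool. In lymphatic endothelium Thbd (183, or 217 and 168 by pool) was above the others in both pools. Its Plat stood at 0.90 and 56.2 CPM per kb and its F8 at 44.3 and 28.1, so their order also differed between pools. In hepatocytes Fgb stood at 286, F2 at 135 and F9 at 28.0 CPM per kb. Plat was 63.5 CPM per kb in fibroblasts and 71.8 in stellate cells.

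The wider pathway was read from a list of 41 other genes, of which 40 were tested. Calls are by edgeR unless stated. DESeq2 called more of the list in each of the 4 class comparisons, such as 25 in parenchymal cells, beside 24.3% of all genes. Parenchymal cells had 14 called higher and 0 lower, beside 12.4% of all genes (median log2 fold change 3.31 over the list, -0.27 over all genes), led by Proc, the protein C gene (395 and 611 CPM; 7.91 ± 0.51, edgeR adjusted p = 0.0002). F11 and F13b followed, at 16.8 and 46.9 CPM in male epithelial cells and 0 in female ones (7.23 ± 1.91 and 7.15 ± 1.5, adjusted p = 0.044 and 0.018). Of the 14 clotting factors on the list 6 were called there, of the 6 anticoagulants 4, of the 12 fibrinolysis genes 2, of the 4 protease-activated receptors 1 and of the 5 remaining genes 1. That receptor, named after its values were seen, was F2rl1, which trypsin-like proteases activate and thrombin does not, at 42.3 and 49.1 CPM. Proc was 502 and 626 CPM in male and female cholangiocytes and 226 CPM in male hepatocytes, so unlike F2 it was not higher in the hepatocyte sum.

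Mesenchymal cells had 7 of the list called higher and 0 lower, beside 11.8% of all genes, with a median of -0.57. Adamts13, the protease that trims von Willebrand factor, was 112 and 76.7 CPM there and at most 1.22 CPM in any other pool (9.47 ± 1.02, adjusted p = 0.0011). Serpine2, a thrombin inhibitor, was 477 and 573 CPM (6.10 ± 0.51, adjusted p = 0.0004). Plat and Adamts13 were thus both highest in the mesenchymal pools, where Vwf itself was at 2.78 and 9.20 CPM. Their split within the mesenchyme differed. Adamts13 was 413 and 590 CPM in stellate cells, 124 and 65.6 CPM in mural cells and 27.1 and 16.3 CPM in fibroblasts. Plat was 427 and 543, 123 and 151, and 373 and 454 CPM in the same order.

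Endothelial cells had 3 of the list higher and 3 lower, beside 8.28% of all genes, with a median of -1.44. F3, tissue factor, was 1.18 and 0.0904 CPM in endothelial pools against 270 and 293 CPM in mesenchymal ones (endothelial -6.66 ± 1.09, adjusted p = 0.0098), and Adamts13 was also lower (-6.94 ± 1.51, adjusted p = 0.028). F2rl3, a thrombin receptor, was called higher at 1.35 and 3.36 CPM, but it was at 0 in the epithelial and immune pools, so no fold is given. Immune cells had 2 higher and 5 lower, beside 13.2% of all genes (median -1.20), with F2r, a thrombin receptor, at 10.8 and 6.64 CPM (-4.46 ± 0.50, edgeR, adjusted p = 0.0011) and Serpine2 at 2.46 and 5.52 CPM (-3.21 ± 0.65, adjusted p = 0.015). F13a1, the factor XIII A chain, was called higher at 5.76 and 0.894 CPM (3.77 ± 1.04, edgeR, adjusted p = 0.0496). The male epithelial pool held 1.13 CPM of it, above the female immune pool. Male myeloid cells held 17.3 CPM, male and female Kupffer cells 0.194 and 0.896 CPM, and B cells 0.268 CPM.

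Lymphatic endothelium had 5 of the list higher and 2 lower (median -1.41), beside 7.39% of all genes, led by F2rl1 (9.01 ± 1.45, adjusted p = 0.0013), F3 (8.58 ± 1.30, adjusted p = 0.0008) and F5 (7.03 ± 1.5, adjusted p = 0.0079). Each of the 3 was high in 1 pool only: over male and then female cells F2rl1 was 0.624 and 95.2 CPM, F3 was 98.6 and 0 CPM, and F5 was 1.87 and 119 CPM. Hepatocytes against cholangiocytes had F10 higher (9.46 ± 1.95, adjusted p = 0.021) and Anxa2 (-3.71 ± 0.65, adjusted p = 0.0095) and Pros1 (-2.92 ± 0.68, adjusted p = 0.040) lower, beside 1.23% of all genes and again with 1 hepatocyte sum, assumed to vary like the other populations. edgeR called 0 of the list in the remaining comparisons. An unadjusted p under 0.05 was reached by 6 of the 40 genes in sinusoids against veins, beside 9.76% of all genes, and DESeq2 called 1 there, beside 3.25%. In central against portal vein these counts were 9, beside 7.32%, and 7, beside 4.26%. For fibroblasts they were 4 and 0, beside 6.22% and 1.33%, for stellate cells 4 and 1, beside 7.17% and 2.95%, and for mural cells 1 and 0, beside 6.44% and 2.13%. Summed markers of platelets and megakaryocytes, 7 genes, came to 255 CPM in lymphatic, 60.3 CPM in central vein, 56.8 CPM in e7, 55.9 CPM in portal vein and 34.6 CPM in sinusoidal cells. Their part in the Vwf values was not tested.

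On GRCm38 with GENCODE vM21 the genes lie at X:75172715-75382615 (F8, minus strand), 6:125546774-125686679 (Vwf, plus), 2:91625320-91636414 (F2, minus), X:59999464-60030759 (F9, plus), 3:83040141-83049863 (Fgb, minus), 2:148404466-148408188 (Thbd, minus), 2:155751117-155755471 (Procr, plus), 2:84432855-84476775 (Tfpi, minus) and 8:22757727-22782844 (Plat, plus). Their exons overlap no exon of another gene.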

How the data were processed

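Per the labels and the study's methods, the authors sequenced Smart-seq2 libraries of sorted single liver cells, aligned them to the mouse genome (GRCm38, mm10) and counted reads per gene; the submitters' processing notes name bcl2fastq, Bowtie2, featureCounts (Subread) and Seurat. The deposited values are raw read counts per gene and cell, without molecular identifiers, after the authors had removed cells below 50000 counts and cells with too few or too many genes or with high mitochondrial or spike-in shares. The authors' cluster and annotation columns were used as deposited, so doublet treatment is theirs. The tables of class-wise cells were matched to the labels by class and sex.

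Counts were summed per class, population, cluster or annotation and sex pool, with at least 5 cells per sum for tests, after leaving out 92 ERCC spike-ins; 0 rows named no gene. The main test was edgeR 4.0.16 (R 4.3.3), quasi-likelihood with TMM scaling and filterByExpr, on 8 class sums (24046 genes) or on the sums of 13 populations (25710 genes), with Benjamini-Hochberg adjustment over all genes; called means an adjusted p under 0.05 and an absolute log2 fold change of at least 1. Tested on simulated data for endothelial cells against the other classes and for sinusoids against veins, it called most genes changed 4-fold at a low dispersion and none of them at the common dispersion fitted to these pools, so a change of that size may go uncalled. The 4 of the 9 genes called in endothelial cells had log2 fold changes of 3.22 or more. Alternatives were DESeq2 1.42.0, no filter, at least 10 cells per sum, cells thinned to 50000 counts, sums per plate, the sex pool as a block, other placements of e7, and leaving out each sum. Python 3.11.15, pandas 2.3.3, numpy 2.4.6, scipy 1.17.1 and matplotlib 3.10.9 were used for sums and plots. The limit for 0 of n cells is 3 of n; it limits the share of cells with a count, not of cells expressing the gene, and covers counting error only.

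The genes, the lists and the comparisons were chosen with earlier results of these data known. Named are the 9 genes in every comparison; of the wider list, in each comparison, the 3 called genes with the largest absolute log2 fold change, except 1 that is not reported here, with Lman1 and Mcfd2 in lymphatic and F2rl1 in parenchymal cells added after their values were seen; and the 3 genes with the highest Pearson correlation of log2(CPM + 1) to F8 or to Vwf. Level ratios per 100 counts of Alb and the levels per kilobase use the union of GENCODE exons and counts as deposited. Promoter sequences come from a RefSeq table for GRCm38.p6, with no entry used for Vwf, Thbd and Plat.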

Additional observations from a re-analysis of the deposited data

Results flagged for a closer look

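Plat and Fgb moved in opposite directions in the 2 pools when lymphatic endothelium was set against blood endothelium (the mean CPM of sinusoids, e1 and e2). For Plat, which starts fibrin digestion, the log2 ratio was -2.37 in the male and 3.08 in the female pool. For Fgb, the fibrinogen beta chain, it was -3.26 in the male and 3.91 in the female pool. The difference between pools was not tested, since each pool is 1 sum. The lymphatic sums hold 9 male and 13 female cells. In the female sum 99.2% of the Fgb counts came from 1 cell and 51.1% of the Plat counts from 1 cell, and without that cell the levels were 0.667 CPM of Fgb and 197 CPM of Plat.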

How the results depend on the processing

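Leaving out each sum in turn, the number of the 9 genes called ranged from 4 to 5 in endothelial, 5 to 7 in parenchymal, 1 to 4 in mesenchymal (1 without the mesenchymal male pool) and 0 to 3 in immune cells (0 without the immune female pool). Single calls were lost as follows: Fgb in parenchymal cells without any 1 pool other than the endothelial male or epithelial female; in mesenchymal cells F8 without either mesenchymal pool, Thbd without the mesenchymal male, and Vwf without the mesenchymal male, either epithelial, the endothelial female or the immune female pool; in immune cells F8 without the endothelial male, immune female or mesenchymal female, Thbd without either immune, the endothelial female, epithelial male or mesenchymal male, and Plat without either immune, either mesenchymal or the endothelial female pool. It was 1 to 2 in lymphatic endothelium, 0 to 1 in fibroblasts and in stellate cells, and 0 to 0 in sinusoids, central vein, hepatocytes and mural cells. Over these fits the sinusoid-to-vein log2 fold change lay between 0.63 and 0.98 for F8 and between -5.07 and -2.54 for Vwf.

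In sinusoids against veins, 2 genes were called by DESeq2 and without the filter, and 1 with thinned cells, with sums per plate and with equally weighted cluster sums, where Vwf passed at log2 fold changes of -3.35, -3.37, -3.76, -3.90 and -6.01. Without a call, Vwf was at -1.87 with e7 among the sinusoids and at -1.21 with e4 as a further vein. Central against portal vein had 1 called, Plat, by DESeq2, without the filter, with at least 10 cells per sum, with thinned cells and per plate. Parenchymal cells had 9 by DESeq2 and without the filter and 8 thinned and per plate, and mesenchymal cells 6 by DESeq2. Lymphatic endothelium had 1 per plate. Hepatocytes against cholangiocytes had 4 by DESeq2, 4 without the filter, 2 with at least 10 cells, 3 thinned, 2 per plate, 1 with the replicate block, 3 within the class alone and 2 with cluster sums. Fibroblasts had 1 by DESeq2, without the filter, thinned and per plate, stellate cells 1 by DESeq2 and 2 without the filter, and mural cells 1 without the filter, thinned and per plate. The causes were not tested.

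The log2 fold changes followed through the alternatives were those called in the class comparisons and in lymphatic endothelium, and F8 and Vwf in sinusoids. None of these turned its direction; 282 values kept their side of the threshold, 5 gained a call and 36 lost one. The replicate block (sex pool) otherwise changed the calls of Fgb in parenchymal cells, Plat in immune cells and Vwf in hepatocytes, all given above. Pools of the same number share sex and in part plates, and the labels tie them to no shared animal, so they were not treated as pairs: over 45 pairs of 10 populations the correlation of deviations was -0.043 to 0.337, with a median of 0.079 and 15 above 0.1. F9 values rest on the 26.1% of hepatocytes with a count.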
